A study of Drosophila melanogaster with 6 samples.

Results

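The SIN3 complex is a histone deacetylase corepressor, and 8 genes that encode its subunits were followed here at the transcript level: *Sin3A*, *Rpd3*, *Caf1*, *lid*, *Sap30*, *Bin1*, *MRG15* and *Pf1*. They are 8 of the 14540 rows of the expression table. *Sin3A* and 6 others were found by symbol, and *Pf1* stands in the table as *CG3815*, which the RefSeq gene table lists as its synonym. RNA-seq was carried out on SIN3 187HA cells and on S2 cells, with 3 biological replicates of each. Total RNA was extracted, and the methods describe cDNA made from purified mRNA. SIN3 187HA cells are a stably transfected line of S2 cells in which copper, through a metallothionein promoter, induces HA-tagged SIN3 187, and S2 cells are the non-transfected *Drosophila* line. Both groups were treated with CuSO4, which the labels give as 0.07 µM, for 48 h in replicate 1 of each. The transgenic line differs from S2 cells both in the SIN3 it makes and in having been selected and kept as a stable line, and these differences cannot be told apart in the comparison.

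SIN3 is a scaffold with no catalytic activity of its own that holds a histone deacetylase, histone-binding proteins and a histone demethylase. DNA-bound factors bring it to promoters, where deacetylation of histone tails is linked to repression. In budding yeast the homologous proteins form a large complex, which acts mainly at promoters, and a small complex, which acts over transcribed gene bodies that carry methylated lysine 36 of histone H3. The question asked of the data was whether transcripts of the partners differ between the lines when that of SIN3 is raised.

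The authors combined the 3 replicates of a group into 1 FPKM value (fragments scaled for transcript length and library size) before deposition. No value below therefore has a spread between replicates or a test, and each difference is described by its size only. The depth was estimated at 15900000 fragments per library in SIN3 187HA cells and 15300000 fragments in S2 cells. The ratio used throughout is the log2 of the FPKM plus 0.1 in SIN3 187HA cells over the same in S2 cells, for the 8496 rows with an FPKM of at least 1 in either group. Of 10 markers of hemocytes, the blood cell type that S2 cells resemble, none was listed at 0 in either line. Their summed FPKM was 503 in SIN3 187HA cells and 1307 in S2 cells. Of these sums *He* alone held 72.7 FPKM in SIN3 187HA cells and 766 FPKM in S2 cells. The row of *ush* held 169 FPKM in SIN3 187HA cells and 82.4 FPKM in S2 cells. Among the 9 hemocyte markers that were compared, 5 were at least 2-fold lower in SIN3 187HA cells (*Pxn*, *NimC1*, *eater*, *He* and *Cg25C*) and *ush* was at least 2-fold higher. The GATA factor that defines the lineage, *srp*, was at 77.0 FPKM in SIN3 187HA cells and 86.9 FPKM in S2 cells. The row of *ush* is shared with *MED15* and that of *srp* with *CR44133*, so each value belongs to both genes of its row. The 6 markers past 2-fold differed by more than any partner of *Sin3A* did, and their part in the values below was not tested. In bulk RNA, fewer cells of a kind and less RNA per cell cannot be told apart. Summed over 3 markers each, crystal cell, neuron, germ line and muscle markers gave 1.25, 7.15, 5.57 and 0.494 FPKM in SIN3 187HA cells and 0.125, 2.58, 3.75 and 0.921 FPKM in S2 cells. In SIN3 187HA cells the crystal cell and neuron sums came mostly from *lz* (1.17 FPKM) and *elav* (6.74 FPKM). In S2 cells *lz* was at 0.0155 FPKM and *elav* at 2.39 FPKM. The other crystal cell and neuron markers were under 1 FPKM in both lines. Of the dosage compensation markers of a male line, *roX2* was at 32.9 FPKM in SIN3 187HA cells and 54.1 FPKM in S2 cells. *msl-2*, in a row shared with *mir-4971*, was at 24.04 FPKM in SIN3 187HA cells and 25.65 FPKM in S2 cells. *roX1* was at 0.286 FPKM in SIN3 187HA cells and 0.0969 FPKM in S2 cells, under 1 FPKM in both.

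*Sin3A*, which encodes the scaffold, had 2319 FPKM in SIN3 187HA cells and 56.9 FPKM in S2 cells, a 40.7-fold higher level (log2 ratio 5.35). The direction is the one that the labels give. The row's locus lies at 2R:8459617-8480397 of the dm3 build, and the gene is read from the minus strand. In S2 cells 1831 rows of the compared set stood above *Sin3A*, whereas 70 did so in SIN3 187HA cells, and its share of the summed FPKM of the table was 0.293% in SIN3 187HA cells against 0.00696% in S2 cells. The Ensembl annotation of BDGP6 holds 10 transcripts of the gene with 7 different protein lengths, which fall into 5 transcripts encoding 1747 to 1786 residues and 5 encoding 2060 to 2066 residues. The FPKM sums over all of them and over the transgene's cDNA, so the levels of the SIN3 187 and SIN3 220 isoforms could not be read separately. *ClC-b*, a chloride channel gene, and the non-coding *CR30055* share the locus on the opposite strand. The library kit does not mark strand, so reads in the shared stretches cannot be assigned with certainty. *ClC-b* was at 97.7 FPKM in SIN3 187HA cells and 64.2 FPKM in S2 cells, and *CR30055* was at 15.4 FPKM in SIN3 187HA cells and 35.2 FPKM in S2 cells.

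**Figure D1:**
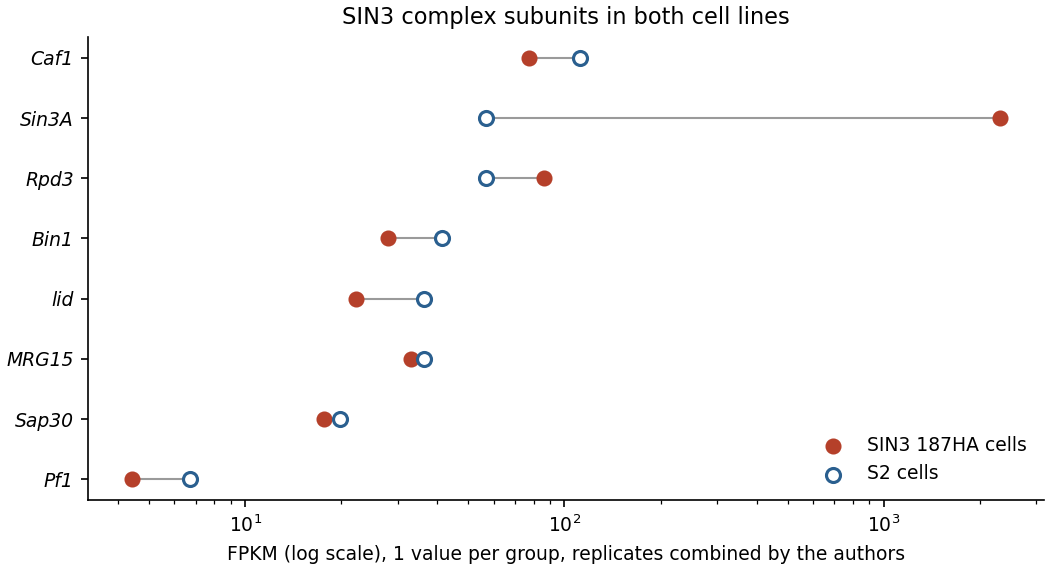
FPKM of each SIN3 complex subunit gene on a log axis, with SIN3 187HA cells as filled points and S2 cells as open points, 1 value per group. *Sin3A* stands apart at 2319 FPKM in SIN3 187HA cells and lies among its partners in S2 cells, *Rpd3* lies to the right of its S2 value, and the other 6 lie to the left of theirs.

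*Rpd3* encodes the class I deacetylase that gives the complex its catalytic activity. It had 86.2 FPKM in SIN3 187HA cells and 56.7 FPKM in S2 cells, which is 1.52-fold higher (log2 ratio 0.60). It was the single partner with a higher value in SIN3 187HA cells, and its ratio stood above that of 77.9% of the compared rows. The gene lies at 3L:4626734-4629467 and encodes 521 residues.

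*Caf1* encodes p55, a WD40-repeat protein that binds histones and is also a subunit of NURF, CAF-1, NuRD and Polycomb repressive complex 2. It was the most abundant of the 8 transcripts in S2 cells. Its level was 77.3 FPKM in SIN3 187HA cells and 111.8 FPKM in S2 cells, or 69.2% of the S2 value (log2 ratio -0.53, 3R:11051298-11053286). *Rpd3* and *Caf1* therefore stood in the opposite order in the lines, with 1.11 *Rpd3* per *Caf1* in SIN3 187HA cells and 0.508 in S2 cells on the FPKM scale.

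*lid*, named *Kdm5* in RefSeq, encodes the JmjC demethylase that removes trimethylation from lysine 4 of histone H3. It had 22.3 FPKM in SIN3 187HA cells and 36.4 FPKM in S2 cells. This was the lowest ratio among the partners, at 61.3% of the S2 value or 1.63-fold lower (log2 ratio -0.71), and 18.3% of the compared rows had a lower one. The gene lies at 2L:5989463-5999501 and encodes 1838 residues.

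*Sap30* and *Bin1* encode the counterparts of mammalian SAP30 and SAP18, small proteins first described as SIN3-associated polypeptides. *Sap30*, with 173 residues, was at 17.6 FPKM in SIN3 187HA cells and 19.8 FPKM in S2 cells (log2 ratio -0.17, 88.9% of the S2 value, X:16681789-16685266). *Bin1*, with 150 residues, was at 28.0 FPKM in SIN3 187HA cells and 41.3 FPKM in S2 cells (log2 ratio -0.56, 67.8% of the S2 value, 3R:12006742-12012615). The pair differed in size of change, with *Sap30* close to its S2 level and *Bin1* 1.48-fold below its own. Each locus is shared with a gene on the other strand. *Rrp45*, a subunit of the RNA exosome, lies with *Sap30* and had 20.1 FPKM in SIN3 187HA cells and 18.4 FPKM in S2 cells. *CG8927* lies with *Bin1* and was under the minimum level of 1 FPKM in both lines.

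*MRG15* and *Pf1* are the homologues of the subunits that mark the small complex of yeast. *MRG15* is a chromodomain protein that binds methylated lysine 36 of histone H3 and is also part of the Tip60 acetyltransferase complex, and *Pf1* carries a PHD finger. *MRG15* was at 33.1 FPKM in SIN3 187HA cells and 36.3 FPKM in S2 cells (log2 ratio -0.13, 91.2% of the S2 value), the smallest difference among the 8 genes. Its row, at 3R:11101244-11104351, is shared with *l(3)neo43* on the same strand, so the value belongs to both, and *CG4338* on the other strand had 17.3 FPKM in SIN3 187HA cells and 23.2 FPKM in S2 cells. *Pf1* was the least abundant subunit transcript in both lines, with 4.41 FPKM in SIN3 187HA cells and 6.69 FPKM in S2 cells (log2 ratio -0.59, 66.4% of the S2 value, X:6189424-6193006). Its value rests on the fewest fragments, an estimated 212 per library in SIN3 187HA cells and 310 per library in S2 cells, where the other partners had 456 to 2634 in SIN3 187HA cells and 495 to 3173 in S2 cells.

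None of the 7 partners differed by 2-fold or more in either direction. Over all 8496 rows 27% did so, with 14.3% of all rows higher and 12.8% of all rows lower in SIN3 187HA cells. The 5450 rows with an S2 FPKM between 6.69 and 111.8, the range of the partners, were taken as a background of like level, and of these 16% differed by 2-fold or more, 5.56% higher and 10.5% lower. The range was set on the S2 value alone, so rows under it in S2 cells but higher in SIN3 187HA cells are left out. The split of this background by direction can depend on that choice. At a 1.5-fold limit 3 partners passed (*Rpd3* higher, *lid* and *Pf1* lower), where 44.3% of all rows and 33.3% of the rows of like level did, so the share among the partners was near the background. By direction alone, 6 of the 7 partners were lower in SIN3 187HA cells, where 51.8% of all rows and 56.5% of the rows of like level were. The median log2 ratio of the partners was -0.53, with quartiles of -0.58 and -0.15. For all rows the median was -0.03 with quartiles of -0.49 and 0.50, and for the rows of like level it was -0.09 with quartiles of -0.46 and 0.28. The 4 lowest partners thus lay below the lower quartile of the rows of like level and *Rpd3* above their upper quartile, while *MRG15* and *Sap30* lay between these quartiles. With 7 genes and 1 value per line this is a description, and it carries no test.

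**Figure D2:**
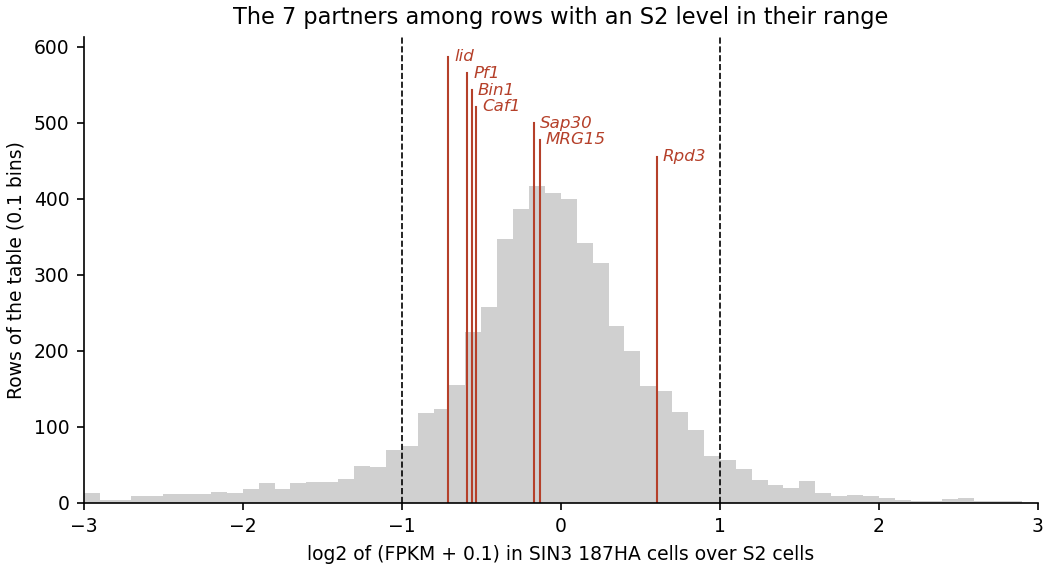
Number of rows (y axis) by log2 ratio of SIN3 187HA cells over S2 cells (x axis) for the 5450 rows whose S2 level lies in the range of the partners, with the 7 partners as vertical lines (their height has no meaning) and 2-fold as dashed lines; rows beyond a log2 ratio of 3 in either direction are not drawn. All partners lie between the dashed lines, with 4 between -0.71 and -0.53, *Sap30* and *MRG15* near the peak and *Rpd3* at 0.60.

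The ratio between transcripts within a line does not depend on how the lines are scaled to each other. For 100 *Sin3A* transcripts on the FPKM scale, SIN3 187HA cells had 11.6 transcripts of all 7 partners together and S2 cells 543. The partners' summed level itself was 268.9 FPKM in SIN3 187HA cells and 309.1 FPKM in S2 cells. Per 100 *Sin3A*, *Rpd3* was at 3.72 in SIN3 187HA cells and 99.8 in S2 cells, *Caf1* at 3.33 in SIN3 187HA cells and 197 in S2 cells, and *Pf1*, the scarcest, at 0.190 in SIN3 187HA cells and 11.8 in S2 cells. With *Sin3A* 40.7-fold higher, the transgene's cDNA included, and no partner past 2-fold, each proportion to *Sin3A* had to fall. The values here are transcript levels, and protein levels were not measured in the table.

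Among the 7 partners themselves, 4 of the 21 pairs changed their ratio by 2-fold or more, and 31.8% of all pairs of rows of like level did. All 4 hold *Rpd3*, which is in 6 of the 21 pairs, so they are not independent of each other. Relative to *lid* the level of *Rpd3* was 3.88 in SIN3 187HA cells and 1.56 in S2 cells, a 2.48-fold difference, and relative to *Pf1*, *Bin1* and *Caf1* the difference was 2.29-fold, 2.24-fold and 2.19-fold. In the 15 pairs without *Rpd3* the ratio moved by at most 1.49-fold, with *lid* and *MRG15* at that limit (0.672 *lid* per *MRG15* in SIN3 187HA cells and 1.00 in S2 cells). *Caf1*, *Bin1* and *Pf1* stood almost in the same proportions in the lines, with changes of 1.02-fold to 1.04-fold between them, and so did *MRG15* and *Sap30* at 1.03-fold.

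Adjacent genes can differ together between cell lines, so each gene was set beside its 24 nearest compared rows on the arm, 12 on each side. *Rpd3* lay in a stretch where all 24 were higher in SIN3 187HA cells, with a median of 1.01 and 12 of them at least 2-fold higher, from 4365434 to 5139163 on 3L. The nearest of them, *Src64B* and *CG7509*, had log2 ratios of 3.24 and 1.65. A row under 1 FPKM in S2 cells is compared only through its SIN3 187HA value, so it can only come out higher. Among the 24, this holds for *CG7509*, *slow*, *CG32240* and *DopEcR*, and the counts and medians given here include them. Measured against its 24 neighbours *Rpd3* was not high, since 4 of the 24 had a lower ratio. It lay 0.41 below their median, or 0.52 below with 6 neighbours on each side and 0.13 below with 24 on each side. *Pf1* lay in a stretch of the opposite kind on X, where 23 of the 24 were lower in SIN3 187HA cells, with a median of -0.77 and 7 at least 2-fold lower. Its nearest neighbours *CG15892* and *CG12219* had log2 ratios of -0.40 and -0.63. *Pf1* lay 0.18 above the median of its 24 neighbours and, with 24 on each side, at -0.11 relative to their median.

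The neighbourhoods of the other members were shifted less. The median of the neighbours was -0.34 for *lid*, -0.10 for *Caf1*, -0.10 for *MRG15*, 0.15 for *Sap30*, -0.19 for *Bin1* and -0.15 for *Sin3A*. *Sin3A* lay 5.50 above its neighbours, of which 2 differed by 2-fold or more, 1 in each direction. The FPKM of *Sin3A* includes the transgene's cDNA, so this distance does not describe the gene at its own locus. *Caf1*, *lid*, *Bin1* and *Sap30* lay 0.43, 0.37, 0.37 and 0.32 below their neighbours, although *lid* lay only 0.12 below and *Bin1* 0.13 above with 6 neighbours on each side. *MRG15* was within 0.04 of its neighbours. *Caf1* and *MRG15* are 48.0 kb apart and share 11 of their 24 neighbours, so their neighbourhoods are not separate measurements. *Rpd3*, with the highest ratio of the 7, lay below its neighbours in each of these windows, although its rank among the partners changed with the window.

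**Figure D3:**
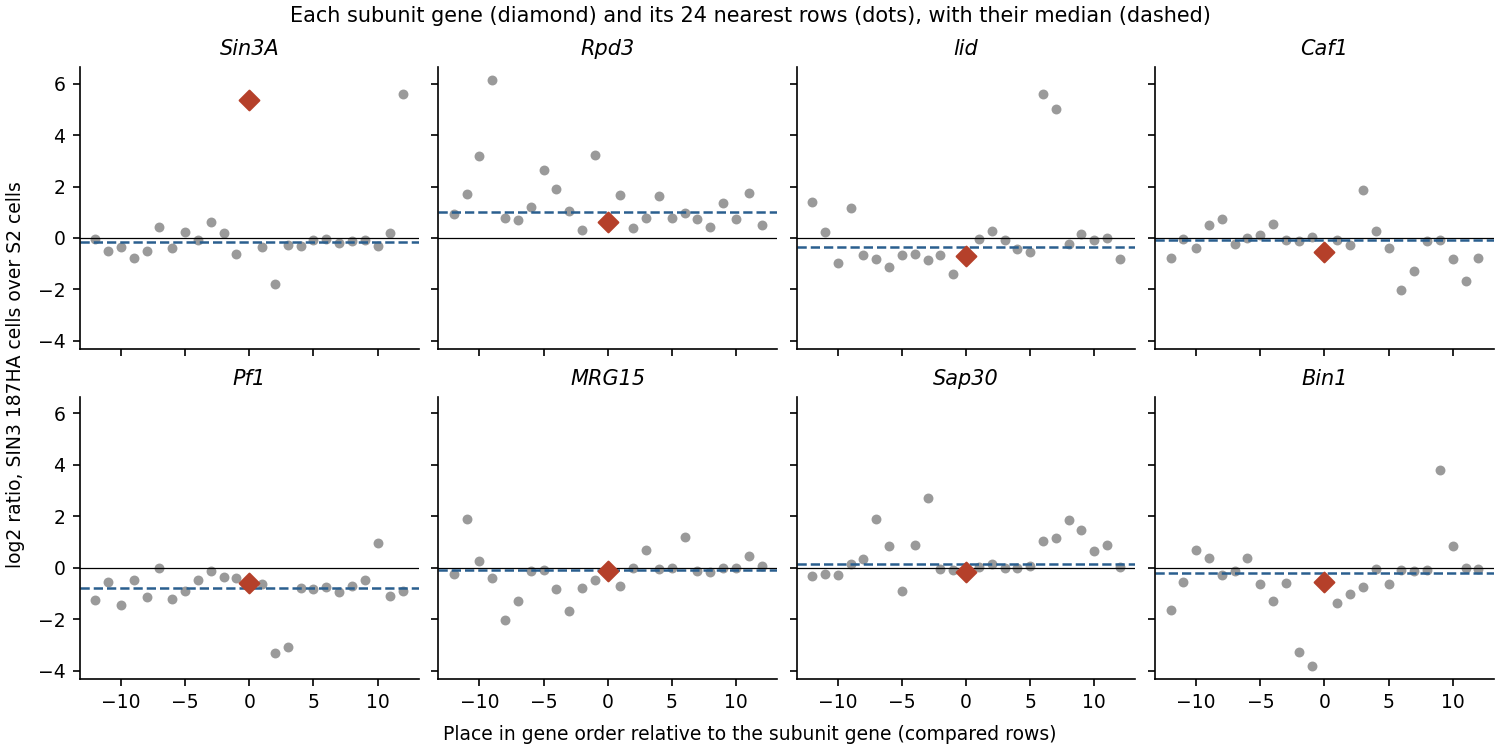
Log2 ratio of SIN3 187HA cells over S2 cells (y axis) for each subunit gene (diamond) and the 12 nearest compared rows on each side (dots, by place in gene order on the x axis), with the neighbours' median dashed. All 24 neighbours of *Rpd3* lie above 0 and 23 of the 24 of *Pf1* lie below, with *Rpd3* 0.41 below its dashed line and *Pf1* 0.18 above its own.

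A further 6 genes encode subunits that have been found in fly SIN3 complexes or are homologues of such subunits, and 1 of them differed by 2-fold or more. *Brms1* (*CG4400* in the table), of the SDS3 and BRMS1 family, had 7.77 FPKM in SIN3 187HA cells and 44.7 FPKM in S2 cells, 5.69-fold lower (log2 ratio -2.51). Of its 24 neighbours on X, 23 were lower in SIN3 187HA cells and 19 by at least 2-fold, with a median of -1.76. *Brms1* lay 0.75 below that median, and 1 of the 24 had a lower ratio. *htk*, the homologue of mammalian ARID4 proteins, had 23.3 FPKM in SIN3 187HA cells and 13.2 FPKM in S2 cells (log2 ratio 0.81) and lay among neighbours with a median of 1.04. The remaining 4 are given for completeness and had log2 ratios between -0.14 and 0.22. *Sap130* was at 19.9 FPKM in SIN3 187HA cells and 18.3 FPKM in S2 cells, *Ing1*, a PHD finger protein, at 20.6 FPKM in SIN3 187HA cells and 22.2 FPKM in S2 cells, and *Sds3* at 12.2 FPKM in SIN3 187HA cells and 10.5 FPKM in S2 cells. *EMSY*, which like p55 and LID has been described as a preferred partner of the SIN3 220 isoform, was at 11.5 FPKM in SIN3 187HA cells and 12.6 FPKM in S2 cells (log2 ratio -0.14). Of the 6 further subunits alone, 3 were lower and 3 higher in SIN3 187HA cells, with a median of 0.008, where that of the 7 partners was -0.53. Over all 13 subunits other than *Sin3A*, 9 were lower and 4 higher in SIN3 187HA cells, with a median of -0.14. Of all rows 27% passed 2-fold and 51.8% were lower in SIN3 187HA cells. For rows of like level these shares were 16% and 56.5%.

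Several subunits work in other complexes too, so the genes of those complexes were counted in the same way. For p55, 0 of the 7 genes of Polycomb repressive complex 2 differed by 2-fold (median -0.21), although its methyltransferase *E(z)* came close with 22.9 FPKM in SIN3 187HA cells and 44.3 FPKM in S2 cells, and *Pcl* had a log2 ratio of -0.76. In the NURF and CAF-1 complexes it was 0 of 5 (median -0.13), and p180 and p105, the subunits that form CAF-1 with p55, had log2 ratios of -0.29 and -0.15. In the dREAM/MMB complex it was 0 of 10 (median -0.14), where *Dp*, the partner of E2F, had a log2 ratio of -0.76 and *Rbf2* one of -0.64. In the joint list of the NuRD and Mec complexes, of which NuRD holds p55 and also RPD3, 1 of 6 passed (median -0.17). This was *simj*, the p66 subunit, with 19.1 FPKM in SIN3 187HA cells and 60.2 FPKM in S2 cells, and the next was *MTA1-like* with a log2 ratio of -0.51. For MRG15, 1 of 14 genes of the NuA4 (Tip60) complex passed (median -0.03), which was *Ing3* with 5.61 FPKM in SIN3 187HA cells and 2.62 FPKM in S2 cells. *Eaf6* was just short of 2-fold, with 22.4 FPKM in SIN3 187HA cells and 11.2 FPKM in S2 cells. Beside these counts stand the 27% of all rows and the 16% of rows of like level that passed 2-fold. The counts of 0 and the 1 of 14 lie below both shares, but lists of 5 to 14 genes are too short for a firm reading of any of them. *simj* stood at -1.32 relative to the median of its 24 neighbours, and *Ing3* at 0.08.

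Among enzymes with the same kinds of activity, 3 of 9 other histone deacetylases passed 2-fold (median 0.02), where 27% of all rows and 16% of rows of like level did, and these shares hold as background for the other lists here too. *HDAC6*, which acts largely in the cytoplasm, had 15.9 FPKM in SIN3 187HA cells and 7.44 FPKM in S2 cells, while the sirtuin genes *Sirt2* (12.6 FPKM in SIN3 187HA cells and 45.1 FPKM in S2 cells) and *Sirt4* (2.63 FPKM in SIN3 187HA cells and 7.03 FPKM in S2 cells) were lower. None of 8 histone acetyltransferases passed (median -0.27), with *Elp3* at a log2 ratio of -0.86 and *chm* at 0.61. Of 8 other histone demethylases, 1 passed (median 0.20), namely *Kdm4B* with 12.96 FPKM in SIN3 187HA cells and 26.7 FPKM in S2 cells in a row shared with *CG17724* and *seq*, and *NO66* had a log2 ratio of -0.72. For the mark that LID removes, 0 of 11 H3K4 methyltransferases and their partners passed (median 0.14), with *wds* at -0.77 and *Rbbp5* at 0.76. For the mark that MRG15 binds, 1 of 4 genes of H3K36 methylation passed (median -0.66). This was *Set2*, the main enzyme that adds trimethylation there, at 8.40 FPKM in SIN3 187HA cells and 17.2 FPKM in S2 cells, and *NSD* had a log2 ratio of -0.66. Relative to the median of its 24 neighbours *Sirt4* stood at -1.24, *Sirt2* at -1.14, *HDAC6* at 0.79, *Kdm4B* at -0.49 and *Set2* at -0.08. *Set2*, *Kdm4B* and *Ing3* lay so near 2-fold that each fell short of it under at least 1 other pseudocount or scaling.

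Of the corepressors and DNA-bound factors through which SIN3 or its deacetylase can act, 2 of 11 passed 2-fold and 10 of the 11 were lower in SIN3 187HA cells (median -0.56), where 51.8% of all rows and 56.5% of rows of like level were lower. *Smr*, which encodes the corepressor SMRTER that links the ecdysone receptor to SIN3, was at 24.6 FPKM in SIN3 187HA cells and 116 FPKM in S2 cells (log2 ratio -2.23). Its row is shared with *CR43963*. It shares 13 of its 24 neighbours with *Brms1*, but their median was -0.66 and *Smr* stood at -1.57 relative to it. *H*, Hairless, the adaptor that makes Su(H) a repressor in Notch signalling, was at 14.4 FPKM in SIN3 187HA cells and 52.7 FPKM in S2 cells (log2 ratio -1.87), among neighbours with a median of -1.63 of which 23 of 24 were lower. *Smr* is also in the CoREST and SMRTER list, where it was the 1 of 6 that passed (median 0.09), followed by *ebi* with a log2 ratio of -0.67. Over the 99 different genes of the 13 chromatin lists, 2 were at least 2-fold higher and 8 at least 2-fold lower in SIN3 187HA cells, or 10.1% together, where 27% of all rows and 16% of the rows of like level passed, and their median was -0.14.

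**Figure D4:**
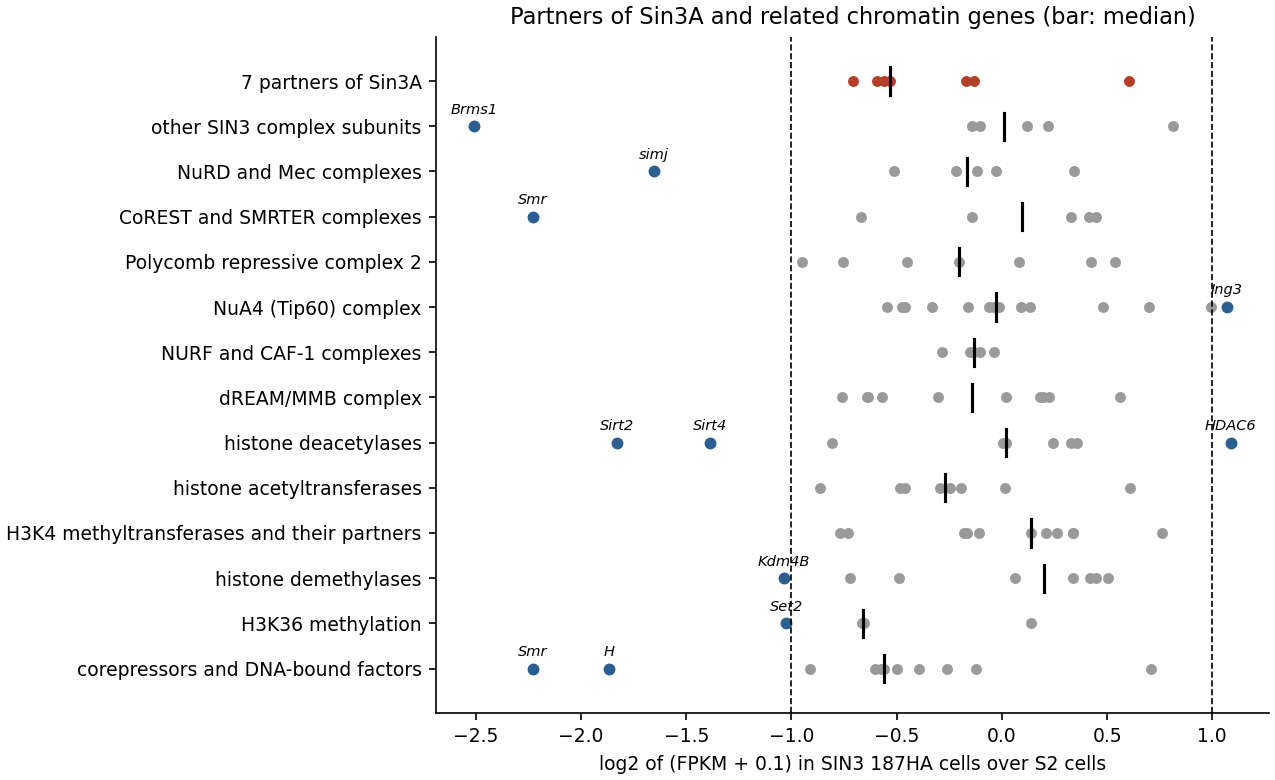
Log2 ratio of SIN3 187HA cells over S2 cells (x axis) for the 7 partners of *Sin3A* and for each gene of the 13 chromatin lists (dots, 1 list per line), with the median of each as a bar, 2-fold as dashed lines and genes past it in blue and named. The partners' median of -0.53 lies below that of every list except H3K36 methylation (-0.66) and the corepressors and DNA-bound factors (-0.56).

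Copper was given to both lines and drives the transgene, so its target genes were read beside *Sin3A*. *MtnA*, the most abundant metallothionein, was at 21275 FPKM in SIN3 187HA cells and 19120 FPKM in S2 cells (log2 ratio 0.15). *MtnB* was at 2426 FPKM in SIN3 187HA cells and 349 FPKM in S2 cells, a log2 ratio of 2.80 and the 1 of 7 compared copper response genes past 2-fold (median -0.13), while *MtnE* was lower with a log2 ratio of -0.78. *MtnC* was listed at 0 in SIN3 187HA cells and was under the minimum level in S2 cells. The metallothionein genes therefore did not differ in a single direction between the lines.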

How the data were processed

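RNA-seq covered 3 biological replicates each of SIN3 187HA cells and S2 cells, with cDNA made from mRNA after total RNA was extracted. The authors prepared libraries with the TruSeq kit, sequenced paired ends of 50 nt, aligned them to dm3 with Bowtie2 and Tophat, used Cufflinks to estimate levels of RefSeq genes and cuffdiff to compare groups. The submitters' processing notes name bcl2fastq, Cuffdiff and dm3, and versions are not given in the sources used here. The methods give the CuSO4 dose in M and the labels in µM.

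The deposited table holds 1 FPKM value per gene and group, which the authors made by combining the replicates. It also holds the authors' own fold changes, test statistics, p-values and q-values, which were not used. The files give no counts. Depth was estimated from the lowest nonzero values, FPKM times transcript length, of single-transcript genes longer than 1500 nt, which assumes that the lowest step is 1 fragment of 200 nt and that a group value is the mean of 3 libraries.

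Computed here with Python 3.11.15, pandas 2.3.3 and numpy 2.4.6 were log2 ratios of FPKM plus 0.1, for rows with an FPKM of at least 1 in either group. The 3 rows that cuffdiff marks HIDATA were left out. A pseudocount makes the ratios of low genes smaller. Ratios, counts past 2-fold, medians and neighbours (12 rows on each side by locus start, rows overlapping the gene left out) were tested on simulated data. Coordinates are 1-based, and a locus is as cuffdiff bundles overlapping genes. Strands, transcripts and protein lengths come from Ensembl BDGP6, another build, and no coordinates were taken from it.

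The genes named are the members, genes of a list past 2-fold, the largest 2 of a list with 0 or 1 such gene, and the nearest neighbours of members whose neighbour median lies beyond 0.5. Overlapping genes, markers, *MtnA*, *MtnC* and the subunits given for completeness were chosen after their values were seen. The members and lists were chosen with earlier results of these data known, and 2 list identifiers were corrected by RefSeq synonym after the table had been read. Alternatives were other pseudocounts, level filters, scalings, fold limits, neighbour windows and rows with a single gene.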

Additional observations from a re-analysis of the deposited data

How the results depend on the processing

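No paired analysis was possible because the authors combined the 3 replicates of each group into 1 column, and for the same reason no replicate could be left out. Of 115 recomputed main values, 106 stayed within a log2 ratio of 0.1 or within 1.5 times the count and 9 moved by more. At 1.5-fold, 3 partners and 3761 rows passed, and at 3-fold 0 partners and 1420 rows did. Relative to the neighbour median, with 6 neighbours on each side *Rpd3* lay at -0.52, *lid* at -0.12 and *Bin1* at 0.13, with 24 on each side *Rpd3* lay at -0.13 and *Pf1* at -0.11, and with neighbours from rows with a single gene *lid* lay at -0.22. For *Bin1* and *Pf1* these differ in sign from the values with 12 on each side. The log2 ratio of each partner kept its sign under every pseudocount, filter and scaling tried, from 0.60 to 0.64 for *Rpd3*, from -0.71 to -0.67 for *lid*, from -0.60 to -0.51 for *Pf1* and from -0.13 to -0.09 for *MRG15*. Among rows with a single gene, *MRG15* is left out and 5 of 6 partners were lower. Of 370 values for the lists and their genes, 41 moved by more than these limits, and the NuA4 (Tip60) median, -0.03, turned to between 0.0054 and 0.013 under the 3 scalings. The cause was not tested for any of these. The lack of values per replicate limits every comparison, and no difference in level was set here against the spread between cultures.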
